A study of Mus musculus with 12 samples.

Results

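The 43 genes described here are neighbours on mouse chromosome 17, from Stk38 to Cd320, a stretch of 4.88 Mb between positions 28970880 and 33849774 (GRCm38, the assembly of mm10). They were chosen by symbol, from a count table of 52535 gene entries, because earlier work on these same libraries had found this stretch low in one knockout clone. Some genes of the stretch, such as Cdkn1a, Pim1 and ribosomal or Nduf genes, were left out of the choice. Clone 1 against wild type is therefore the contrast that selected them, and its values are given below as a description without a test. All libraries come from E14 mouse embryonic stem cells grown in medium with serum, the cytokine LIF and the inhibitor pair known as 2i. Wild type cells (WT) gave 2 libraries, and so did each of 2 clones labelled as Bcat1 knockout, so each knockout group stands for 1 clone. Bcat1 encodes a cytosolic branched-chain amino acid transaminase, and the study's title ties it to self-renewal and Ras signalling. A further 6 samples of the series, cells before and after removal of LIF and 2i, were not analysed here.

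Genes that sit side by side on a mammalian chromosome mostly do unrelated work, and each is usually read from its own promoter. Their transcript levels are known to follow the number of DNA copies of the segment they lie on, in many genes nearly in proportion and in others less so. Mouse embryonic stem cell lines are known to gain or lose chromosome segments in culture, and single-cell cloning fixes whatever the founder cell carried. DNA copy number was not measured in these samples, and its part in the values below was not tested. The genes of this stretch include splicing factors (Srsf3, U2af1, Hnrnpm), protein kinases (Stk38, Sik1), enzymes of sulphur amino acid and glyoxal metabolism (Cbs, Glo1) and genes of sperm or cilia (Dnah8, Rsph1).

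To show the kinds of promoter found among these neighbours, the 250 bases upstream of the annotated start are printed for 4 of them, 5′ to 3′ on the gene's own strand, from RefSeq on GRCm38.p6. Stk38 and Cd320 are the first and the last genes of the stretch, Cbs had the lowest ratio of clone 1 to WT, and Kank3 had the highest among the well-expressed genes. Capitals mark the GC box GGGCGG and the CCAAT box, on either strand.
Stk38 (chr17:29007996-29008245, minus strand): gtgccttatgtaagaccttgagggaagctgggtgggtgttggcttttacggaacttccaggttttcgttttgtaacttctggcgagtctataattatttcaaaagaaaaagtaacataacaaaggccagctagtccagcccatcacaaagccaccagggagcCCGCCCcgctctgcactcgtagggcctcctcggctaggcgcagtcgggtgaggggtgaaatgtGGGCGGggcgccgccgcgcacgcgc
Cbs (chr17:31637206-31637455, minus strand): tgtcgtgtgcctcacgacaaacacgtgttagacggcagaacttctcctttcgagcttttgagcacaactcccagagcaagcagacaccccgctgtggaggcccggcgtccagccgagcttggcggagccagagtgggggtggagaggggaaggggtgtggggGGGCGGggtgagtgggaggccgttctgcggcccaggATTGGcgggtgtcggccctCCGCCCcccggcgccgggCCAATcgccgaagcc
Kank3 (chr17:33810273-33810522, plus strand): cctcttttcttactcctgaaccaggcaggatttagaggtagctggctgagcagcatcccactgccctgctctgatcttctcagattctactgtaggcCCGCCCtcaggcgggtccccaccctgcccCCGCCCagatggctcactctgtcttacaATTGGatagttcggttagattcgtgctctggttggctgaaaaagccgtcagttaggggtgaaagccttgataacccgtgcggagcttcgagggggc
Cd320 (chr17:33842841-33843090, plus strand): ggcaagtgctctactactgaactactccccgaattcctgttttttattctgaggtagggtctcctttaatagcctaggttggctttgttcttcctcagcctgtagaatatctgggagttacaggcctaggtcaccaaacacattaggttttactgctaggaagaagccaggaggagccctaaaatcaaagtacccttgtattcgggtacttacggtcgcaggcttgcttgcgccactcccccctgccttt
The Stk38, Cbs and Kank3 windows hold GC boxes and those of Cbs and Kank3 also CCAAT boxes, while the Cd320 window holds neither. Where a gene had several annotated starts, as Cd320 had with 2, only the first listed was used. Of the 43 genes, 35 matched an entry, and 30 of these passed the filter on low counts described below. Searching both strands for letters that do not contain one another, GGGCGG was found in 22 of these 30 windows, or 73.3%, against 59.5% of the 10456 windows of all genes tested. CCAAT was found in 16 (53.3% against 36.9%), TATAAA in 3 (10% against 6.10%) and the palindrome CACGTG in 1 (3.33% against 8.48%). The median number of CpG dinucleotides was 14.5 per window for the 30 genes, with a range of 2 to 35, and 16 for all genes tested. These are descriptions of letters in a window, and matches need not be binding sites.

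Gene counts totalled between 11976149 and 13923262 per library. Levels are given as CPM, counts relative to the library total after TMM scaling, which sets libraries to a common scale through the bulk of genes. Of the 43 genes, 38 passed the filter on low counts among 14946 genes tested. The 2 libraries of clone 1 differed from each other by more than those of the other groups, with a chi-square per gene of 8.79 against 3.57 in WT and 3.27 in clone 2. Whether the libraries of a group come from separate cultures is not stated in the labels. The p-values thus rest on the spread among these libraries alone, and that spread may be technical. Bcat1 RNA stood at 602 and 614 CPM in the WT libraries, 617 and 662 in those of clone 1 and 583 and 579 in those of clone 2, and the difference from WT passed edgeR's test in neither clone (adjusted p = 0.523 and 0.606). The RNA level therefore does not tell the labelled knockouts from WT, and the libraries are called by their labels. All 10 markers of embryonic stem cells were detected in every library, with summed levels of 7199 and 7382 CPM in the WT libraries, 6532 and 6614 in those of clone 1 and 6743 and 6745 in those of clone 2. By edgeR's test 4 of them were lower in clone 1 (Utf1, Klf4, Sox2 and Dppa5a), where 9.53% of all genes tested were. In clone 2, 3 were lower (Utf1, Tdgf1 and Sox2), against 7.81% of all genes tested, and no marker of this list was called higher in either clone. Nanog and, in clone 2, Tfcp2l1 leaned upward without a call. Nanog stood at 621 and 636 CPM in the WT libraries, 753 and 671 in those of clone 1 and 694 and 649 in those of clone 2. Tfcp2l1 stood at 854.5 and 884.6 CPM in the WT libraries and 1023 and 989.5 in those of clone 2. Utf1 stood at 191 and 193 CPM in the WT libraries, 86.8 and 134 in those of clone 1 and 48.0 and 59.1 in those of clone 2. Its log2 changes were -0.80 ± 0.14 (SE; adjusted p = 6.89e-04) in clone 1 and -1.84 ± 0.15 (adjusted p = 2.20e-07) in clone 2. Of 9 fibroblast or feeder markers, Postn, Dcn and Lum had 0 counts in every library. The summed level of the list was 24.7 and 25.6 CPM in the WT libraries, 37.7 and 34.8 in those of clone 1 and 21.7 and 23.8 in those of clone 2. Most of each sum was Pdgfrb, which was called in neither clone. It stood at 20.6 and 19.2 CPM in the WT libraries, 24.2 and 24.5 in those of clone 1 and 18.1 and 16.8 in those of clone 2. Of the 5 fibroblast markers tested, Col1a2 was called higher in both clones (adjusted p = 9.69e-04 and 0.0025 in edgeR's test) and Thy1 in clone 1 (adjusted p = 0.0311). Col1a2 had 0 and 1 counts in the WT libraries, 22 and 15 in those of clone 1 and 11 and 18 in those of clone 2. Thy1 had 29 and 46 counts in the WT libraries, 73 and 66 in those of clone 1 and 16 and 20 in those of clone 2. The part of either marker list in the results was not tested. In bulk RNA, fewer cells with a transcript and less transcript per cell cannot be told apart.

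Across the stretch, transcript levels in clone 1 lay around 0.5 of those in WT, while those in clone 2 lay around the WT level. Over the 38 genes tested the median ratio of clone 1 to WT was 0.512, with quartiles of 0.439 and 0.601, whereas the median over all genes tested was 0.999. By clone 1 library the median ratio to the WT mean was 0.495 in replicate 1 and 0.524 in replicate 2. By size of the ratio, 5 genes lay under 0.4, 23 between 0.4 and 0.6, 8 between 0.6 and 0.8, 1 (Cmtr1) between 0.8 and its reciprocal and 1 (Adamts10) above that. A ratio under 0.8 was thus seen in 36 of 38, and 15.9% of all genes tested had one; a ratio between 0.4 and 0.6 was held by 3.24% of all genes. Both clone 1 libraries lay below both WT libraries in 36 of the 38 genes, a pattern held by 28.8% of all genes tested. Since this contrast chose the genes, these shares describe the choice. Clone 2 had a median ratio to WT of 0.986, with quartiles of 0.879 and 1.07, and 30 of 38 genes between 0.8 and its reciprocal, a band that held 62.7% of all genes tested.

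**Figure D1:**
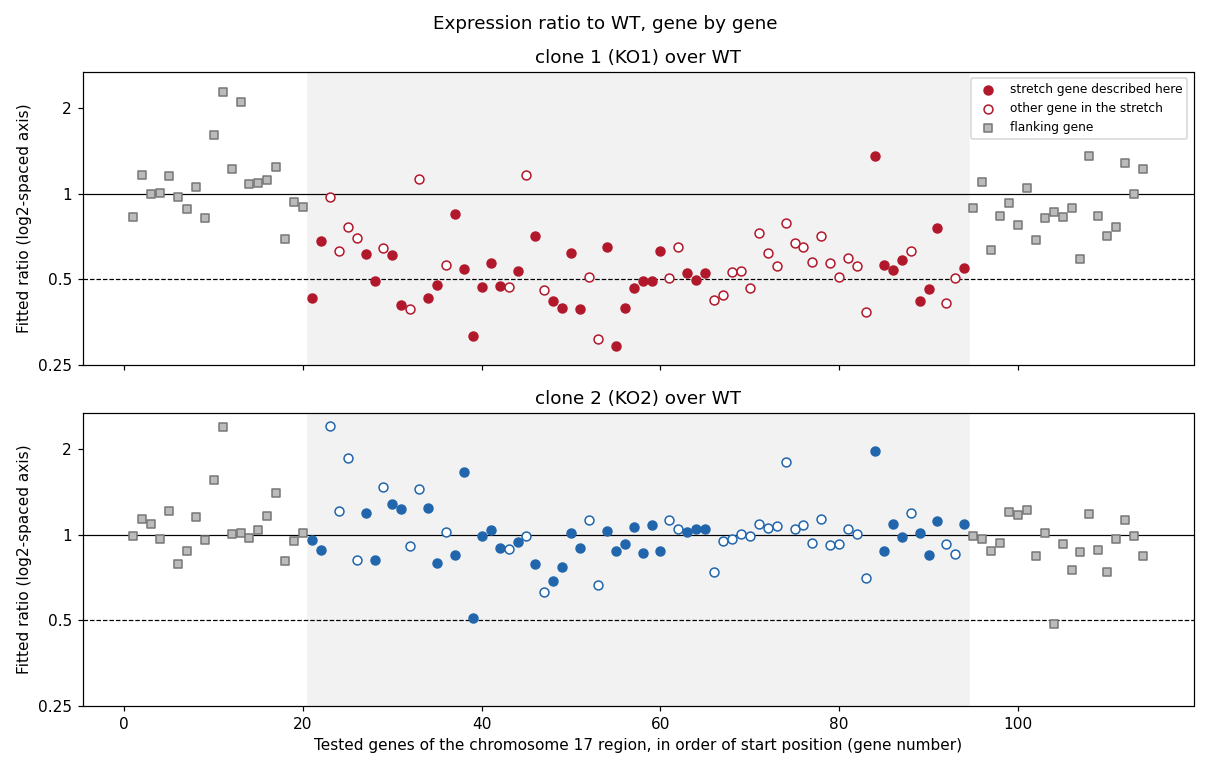
Fitted ratio to WT (vertical axis, log2-spaced) of each tested gene of the region, in order of start position (horizontal axis, gene number), for clone 1 above and clone 2 below; the shaded part is the stretch, the solid line marks a ratio of 1 and the dashed line 0.5. In clone 1 the genes of the stretch gather around the dashed line with a median of 0.512, and the flanking sets have medians of 1.07 and 0.850, while the clone 2 median over the stretch is 0.986.

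At both ends, the level in clone 1 changed between 1 tested gene and the next. The ends follow from the choice of a stretch low in clone 1, so a step there also describes that choice. Kctd20, a gene of the BTB-domain family and the last tested gene before the stretch, stood at 130.3 and 136 CPM in the WT libraries, 122 and 116 in those of clone 1 and 135 and 135 in those of clone 2. Its end lies 1330 bases from Stk38, which stood at 251 and 254 CPM in the WT libraries, 116 and 102 in those of clone 1 and 242 and 244 in those of clone 2. The ratio of clone 1 to WT was 0.894 for Kctd20 and 0.431 for Stk38. At the other end, Cd320 stood at 38.6 and 32.7 CPM in the WT libraries, 17.4 and 21.7 in those of clone 1 and 39.3 and 38.7 in those of clone 2, a ratio of 0.548. Kifc1, a kinesin motor gene of the mitotic spindle that starts 25884 bases further on, stood at 213 and 227 CPM in the WT libraries, 187 and 205 in those of clone 1 and 221 and 215 in those of clone 2, a ratio of 0.89. Both outer genes were a little lower in clone 1 than in every other library, but far less so than Stk38 and Cd320. The other near neighbours, Pnpla1 and 4930539E08Rik before the stretch and Platr17 and BC051226 after it, had ratios of 0.693, 0.935, 1.10 and 0.635 in clone 1, those of Pnpla1 and BC051226 resting on 5.71 CPM or less.

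The 20 tested genes before the stretch had a median clone 1 ratio of 1.07, with 1 gene under 0.8. The 20 after it had a median of 0.850, with 6 under 0.8 and 2 above its reciprocal. Of all genes tested, 15.9% had a ratio under 0.8. Among the 6, Pfdn6, Zbtb22 and Rxrb had a mean CPM of 20 or more, at ratios of 0.685, 0.778 and 0.763. That of Pfdn6 was near the 0.682 of Srsf3 inside the stretch. The distal median was 0.807 in clone 1 replicate 1 and 0.947 in replicate 2. The count under 0.8 over both flanks was 7, and leaving out clone 1 replicate 1 gave 4 while leaving out replicate 2 gave 14. Over the 642 other tested genes of chromosome 17 the median ratio was 0.993 in clone 1 and 1.01 in clone 2.

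**Figure D2:**
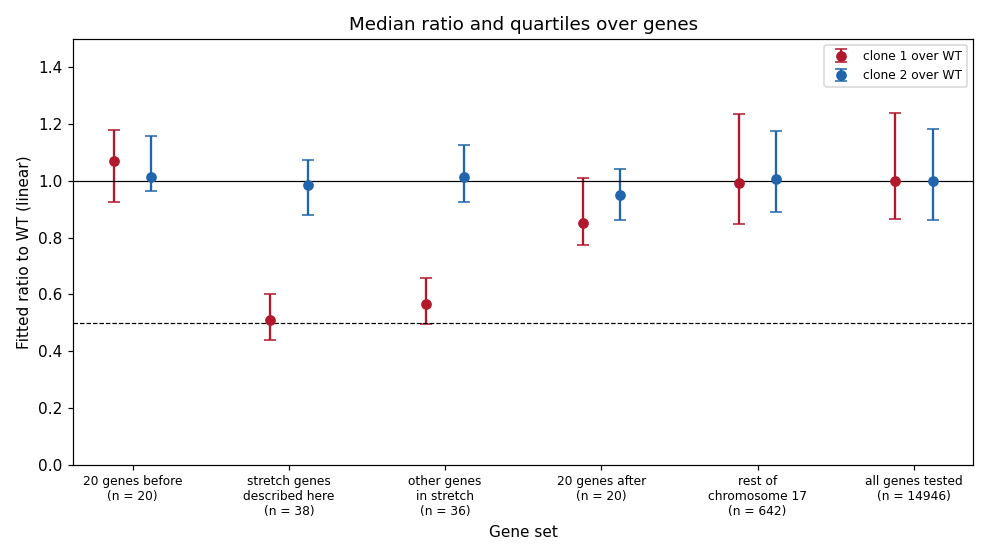
Median fitted ratio to WT (points, linear vertical axis) with the lower and upper quartile over genes (bars) for sets of genes along the horizontal axis, clone 1 in red and clone 2 in blue; the solid line marks 1 and the dashed line 0.5. Only the 2 sets of the stretch sit near the dashed line, at 0.512 and 0.566 in clone 1, and the 20 genes after it have a clone 1 median of 0.850.

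Genes for splicing and RNA handling were low in clone 1 by unequal amounts. Srsf3 encodes a small SR protein that binds exons and guides splice site choice, and it stood at 679 and 607 CPM in the WT libraries, 456 and 422 in those of clone 1 and 583 and 554 in those of clone 2. The clone 1 libraries were the lowest and clone 2 lay between them and WT. U2af1, the subunit that reads the AG at the end of introns, stood at 199 and 200.1 CPM in the WT libraries, 82.1 and 76.0 in those of clone 1 and 186 and 184 in those of clone 2. Hnrnpm, a heterogeneous nuclear ribonucleoprotein that binds GU-rich RNA, stood at 676 and 658 CPM in the WT libraries, 392 and 385 in those of clone 1 and 682 and 630.0 in those of clone 2. In both genes the clone 1 libraries lay far below the others. The log2 difference of clone 1 from WT was -0.55 ± 0.08 (SE) for Srsf3, -1.34 ± 0.08 for U2af1 and -0.78 ± 0.08 for Hnrnpm. Ppil1, a peptidyl-prolyl isomerase of the active spliceosome, stood at 134 and 135 CPM in the WT libraries, 63.5 and 69.2 in those of clone 1 and 116 and 105 in those of clone 2, with a clone 1 difference of -1.02 ± 0.09.

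Per kilobase of annotated exon, Hnrnpm (83.8 RPKM in WT), Srsf3 (81.4) and U2af1 (76.8) had the highest WT levels of the 38 genes, and their clone 1 to WT ratios were 0.583, 0.682 and 0.396. Wdr4, the non-catalytic partner of the tRNA m7G methyltransferase, stood at 70.7 and 76.7 CPM in the WT libraries, 26.9 and 31.1 in those of clone 1 and 61.4 and 70.6 in those of clone 2. Rrp1b, a nucleolar protein of ribosome production, stood at 201 and 214 CPM in the WT libraries, 104 and 101 in those of clone 1 and 226 and 222 in those of clone 2. The clone 1 ratio was 0.393 for Wdr4 and 0.494 for Rrp1b, with no overlap between clone 1 and WT in either. Cmtr1, which methylates the first transcribed nucleotide of capped RNA, had only 16 and 12 counts in the WT libraries, 11 and 12 in those of clone 1 and 7 and 15 in those of clone 2, groups that overlapped. In the annotation used here 75.8% of Cmtr1 exon bases are shared with other genes, among them Gm28043, which spans Rnf8 and Cmtr1. Smaller shares were found elsewhere, such as 30.4% for Zfp414, 22.7% for Wiz, 14.7% for Hnrnpm and 13.2% for Rnf8. Reads on shared bases can be left uncounted as ambiguous, and the low Cmtr1 count may therefore not be its level; the part of this was not tested. The clone 1 difference of Cmtr1 was -0.24 ± 0.53, or 0.01 with WT replicate 1 left out and -0.46 with WT replicate 2 left out. In clone 2 the ratios to WT were 0.884 for Srsf3, 0.927 for U2af1, 0.984 for Hnrnpm, 0.896 for Wdr4, 1.08 for Rrp1b and 0.847 for Cmtr1.

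Kinases and signalling genes were low in clone 1 as well. Stk38, the NDR1 kinase that is activated by MOB proteins, had the values given above and a clone 1 difference of -1.22 ± 0.08 on the log2 scale. Sik1, a salt-inducible kinase that acts on CRTC coactivators, stood at 143 and 150.5 CPM in the WT libraries, 56.8 and 79.4 in those of clone 1 and 150.0 and 162 in those of clone 2. Its clone 1 libraries were uneven but both below every other library, at a difference of -1.10 ± 0.12. Notch3, a receptor cleaved on ligand binding, stood at 83.0 and 87.6 CPM in the WT libraries, 50.5 and 56.9 in those of clone 1 and 75.5 and 74.7 in those of clone 2, and its clone 1 difference was smaller at -0.67 ± 0.10. Rab11b, a small GTPase of recycling endosomes, stood at 73.6 and 76.5 CPM in the WT libraries, 31.7 and 31.1 in those of clone 1 and 77.5 and 74.7 in those of clone 2, a ratio of 0.419. Tbc1d22b, a TBC-domain protein of the family that switches Rab GTPases off, stood at 32.0 and 33.2 CPM in the WT libraries, 13.6 and 14.3 in those of clone 1 and 39.0 and 41.9 in those of clone 2. Clone 1 was lowest and clone 2 highest for Tbc1d22b, with log2 differences from WT of -1.23 ± 0.13 and 0.31 ± 0.11. Cpne5, a calcium-dependent phospholipid-binding copine, stood at 30.4 and 31.6 CPM in the WT libraries, 17.4 and 20.7 in those of clone 1 and 34.7 and 39.1 in those of clone 2, a clone 1 ratio of 0.616. At lower levels, Pde9a, a cGMP phosphodiesterase, had 176 and 134 counts in the WT libraries, 100 and 85 in those of clone 1 and 146 and 146 in those of clone 2. Fgd2, an exchange factor for Cdc42, had 41 and 38 counts in the WT libraries, 6 and 25 in those of clone 1 and 39 and 51 in those of clone 2. The clone 1 difference of Fgd2, -1.30, was -0.64 when clone 1 replicate 1 was left out and -2.625 when replicate 2 was, and that of Pde9a, -0.70, was -0.46 with WT replicate 1 left out. In clone 2 the ratios to WT were 0.963 for Stk38, 1.06 for Sik1, 0.88 for Notch3, 1.01 for Rab11b, 1.19 for Cpne5, 1.02 for Pde9a and 1.23 for Fgd2. Rasal3, a GTPase-activating protein for Ras in blood cells, did not pass the filter: it had 0 counts in WT, where the floor of 3 counts over the group is 0.113 CPM, 11 in clone 1 and 8 in clone 2.

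Nuclear and DNA-binding genes had clone 1 ratios between 0.469 and 0.648. Akap8 and Akap8l are neighbouring genes for nuclear proteins. Akap8 stood at 194 and 208 CPM in the WT libraries, 108 and 103 in those of clone 1 and 209.8 and 202 in those of clone 2. Akap8l stood at 57.9 and 60.0 CPM in the WT libraries, 28.2 and 30.5 in those of clone 1 and 61.2 and 62.4 in those of clone 2. Their clone 1 ratios were 0.525 and 0.498. Wiz, a zinc finger partner of the H3K9 methyltransferases G9a and GLP, stood at 74.5 and 86.4 CPM in the WT libraries, 38.5 and 46.2 in those of clone 1 and 82.6 and 85.96 in those of clone 2, a clone 1 ratio of 0.526. Hsf2bp, which binds BRCA2 and acts in meiotic recombination, stood at 112 and 117 CPM in the WT libraries, 54.7 and 58.6 in those of clone 1 and 95.8 and 102 in those of clone 2, a ratio of 0.494. Its start overlaps that of Rrp1b, which is read from the opposite strand and had a ratio of 0.494. Zfand3, a protein with AN1 zinc fingers, stood at 57.7 and 62.5 CPM in the WT libraries, 25.9 and 30.4 in those of clone 1 and 63.1 and 55.8 in those of clone 2. Pknox1, a homeodomain transcription factor, stood at 26.3 and 28.6 CPM in the WT libraries, 18.4 and 17.2 in those of clone 1 and 26.9 and 29.7 in those of clone 2. Pknox1 was less reduced, at 0.648 against 0.469 for Zfand3. Rnf8, a ubiquitin ligase at DNA breaks, had 83 and 105 counts in the WT libraries, 38 and 49 in those of clone 1 and 64 and 74 in those of clone 2. The zinc finger gene Zfp414 had 203 and 226 counts in the WT libraries, 95 and 129 in those of clone 1 and 206 and 227 in those of clone 2. In both, clone 1 lay below WT without overlap, at ratios of 0.479 and 0.539. Clone 2 stood at 1.03 of WT for Akap8, 1.05 for Akap8l, 1.05 for Wiz, 0.864 for Hsf2bp, 0.989 for Zfand3, 1.03 for Pknox1, 0.795 for Rnf8 and 1.09 for Zfp414. Morc2b, of the MORC ATPase family, did not pass the filter, with 4 and 16 counts in the WT libraries, 2 and 0 in those of clone 1 and 1 and 4 in those of clone 2.

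Metabolic and transport genes held the lowest ratio of the tested genes. Cbs, the enzyme that joins homocysteine and serine at the start of transsulphuration, stood at 97.8 and 94.5 CPM in the WT libraries, 26.1 and 29.8 in those of clone 1 and 88.2 and 81.0 in those of clone 2. The clone 1 libraries were lowest by a wide margin, and the log2 difference was -1.78 ± 0.10, a ratio of 0.29. Glo1, which detoxifies methylglyoxal with glutathione, stood at 302 and 300.4 CPM in the WT libraries, 158 and 128 in those of clone 1 and 276 and 266 in those of clone 2, a ratio of 0.475. Mtch1, a mitochondrial outer membrane protein, stood at 124 and 118 CPM in the WT libraries, 61.5 and 85.4 in those of clone 1 and 155 and 154 in those of clone 2. Here the clone 1 libraries differed from each other, with ratios to the WT mean of 0.509 and 0.706 and a fitted ratio of 0.607. Cd320, the cell surface receptor for vitamin B12 bound to transcobalamin, had the values given with the ends of the stretch. Angptl4, a secreted inhibitor of lipoprotein lipase, stood at 32.5 and 29.1 CPM in the WT libraries, 15.5 and 13.0 in those of clone 1 and 26.6 and 25.5 in those of clone 2. Btbd9, a BTB-domain protein, stood at 30.2 and 31.5 CPM in the WT libraries, 17.9 and 17.3 in those of clone 1 and 31.7 and 32.4 in those of clone 2. Their clone 1 ratios were 0.463 and 0.569, with no overlap with WT. At lower levels, Slc37a1, a sugar phosphate carrier, had 142 and 140 counts in the WT libraries, 47 and 61 in those of clone 1 and 106 and 95 in those of clone 2, a ratio of 0.396. Abcg1, a sterol exporter, had 47 and 58 counts in the WT libraries, 37 and 35 in those of clone 1 and 26 and 51 in those of clone 2, a ratio of 0.71. Clone 2 stood at 0.879 of WT for Cbs, 0.898 for Glo1, 1.09 for Cd320, 0.847 for Angptl4, 1.04 for Btbd9, 0.772 for Slc37a1 and 0.791 for Abcg1. Ephx3, an epoxide hydrolase, did not pass the filter, with 9 and 17 counts in the WT libraries, 1 and 1 in those of clone 1 and 6 and 5 in those of clone 2.

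Genes of cilia, cytoskeleton and the cell surface ranged in clone 1 from 0.315 of the WT level for Mdga1 to 1.35 for Adamts10. Dnah8, a dynein heavy chain of the sperm tail, was well counted in these stem cells, at 249 and 264 CPM in the WT libraries, 153 and 122 in those of clone 1 and 251 and 233 in those of clone 2, and its clone 1 ratio was 0.537. Its annotated exons, joined over all transcripts, cover 26820 bases, and those of its neighbour Glo1 cover 12101. Per kilobase of these, the WT level was 9.57 RPKM for Dnah8 and 24.9 for Glo1. Kank3, a gene of the KANK family of actin regulators, stood at 55.8 and 62.0 CPM in the WT libraries, 44.2 and 45.2 in those of clone 1 and 64.8 and 66.7 in those of clone 2. Its clone 1 libraries were below all others, but the ratio of 0.758 was the highest among the 26 genes with a mean CPM of 20 or more. Myo1f, a single-headed myosin, had 260 and 274 counts in the WT libraries, 143 and 147 in those of clone 1 and 197 and 237 in those of clone 2, a ratio of 0.561. Rsph1, a radial spoke protein of motile cilia, had 51 and 80 counts in the WT libraries, 24 and 29 in those of clone 1 and 39 and 44 in those of clone 2, a ratio of 0.42. Mdga1, a membrane-anchored immunoglobulin protein that binds neuroligins, had 112 and 161 counts in the WT libraries, 35 and 48 in those of clone 1 and 54 and 74 in those of clone 2, a ratio of 0.315. Adamts10, a secreted metalloprotease linked to microfibrils, had 78 and 32 counts in the WT libraries, 62 and 83 in those of clone 1 and 89 and 113 in those of clone 2. It was the 1 gene whose clone 1 ratio lay above 1, at 1.35, but the WT libraries were far apart, and the log2 difference of 0.44 ± 0.32 was -0.09 with WT replicate 2 left out and 1.249 with WT replicate 1 left out. Ccdc167, a coiled-coil protein, had 18 and 28 counts in the WT libraries, 16 and 8 in those of clone 1 and 26 and 45 in those of clone 2, a clone 1 difference of -0.88 ± 0.48 that was -1.48 with clone 1 replicate 1 left out, -0.45 with clone 1 replicate 2 left out and -0.56 with WT replicate 2 left out. Of its exon bases, 51.3% are shared with Cmtr1 or Gm28043 on the opposite strand. In clone 2 the ratios to WT were 0.942 for Dnah8, 1.12 for Kank3, 0.878 for Myo1f, 0.688 for Rsph1 and 1.66 for Ccdc167. Umodl1, a uromodulin-like gene, and Tmprss3, a serine protease of the inner ear, did not pass the filter, with 1 count in all libraries together for Umodl1 and 2 and 2 counts in the WT libraries, 4 and 4 in those of clone 1 and 0 and 0 in those of clone 2 for Tmprss3.

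**Figure D3:**
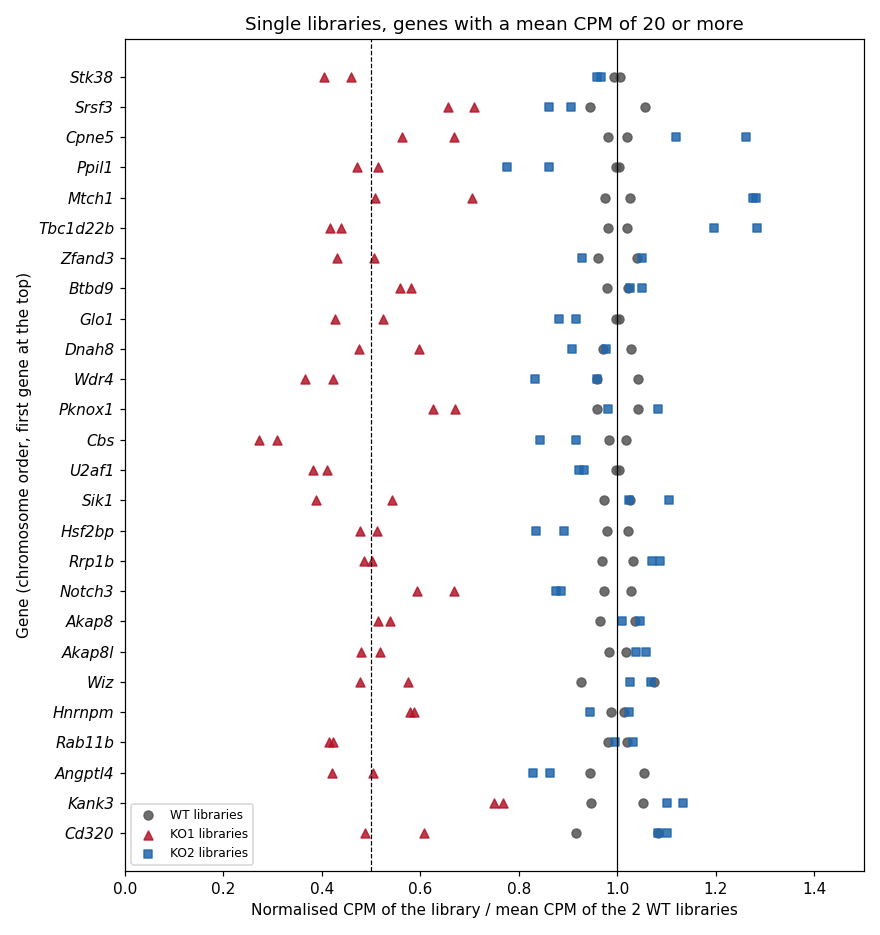
Normalised CPM of each library divided by the mean of the 2 WT libraries (horizontal axis, linear) for the 26 genes of the stretch with a mean CPM of 20 or more (vertical axis, chromosome order); circles are WT, triangles clone 1 and squares clone 2 libraries, the solid line marks 1 and the dashed line 0.5. All clone 1 triangles lie left of all WT circles of the same gene, from Cbs at the far left to Kank3, while clone 2 squares lie on both sides of 1.

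The median clone 1 ratio was 0.496 over the 26 genes with a mean CPM of 20 or more and 0.542 over the 12 below that. Between genes, the log2 differences of clone 1 from WT had an SD of 0.395, and among the 26 well-expressed genes the SD was 0.293 in clone 1 and 0.170 in clone 2. Cbs and Kank3, the ends of the range among these 26, stood at -1.78 ± 0.10 and -0.40 ± 0.10.

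**Figure D4:**
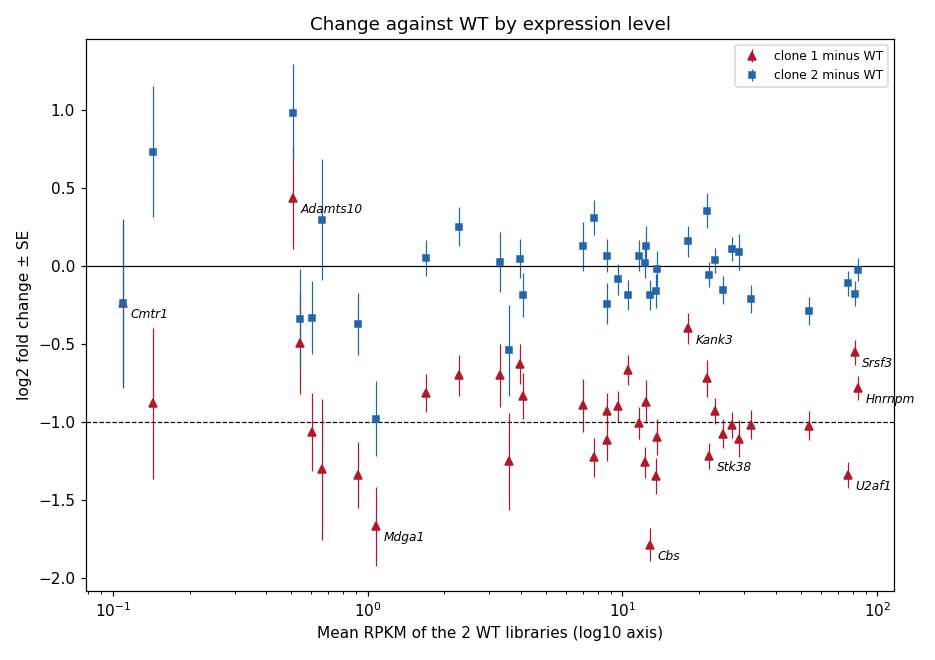
Log2 fold change against WT with its SE (vertical axis) for the 38 tested genes, against the mean RPKM of the 2 WT libraries (horizontal axis, log10); triangles are clone 1, squares clone 2, the solid line marks no change and the dashed line a log2 change of -1. Clone 1 values lie around -1 with a wide spread, from Cbs at -1.78 to Kank3 at -0.40 among genes above 10 RPKM. Below 1 RPKM they run from Slc37a1 at -1.34 to Adamts10 at 0.44, and the bars widen.

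Clone 2 against WT is not the contrast that named the stretch, but its values were known when the genes were chosen as low in clone 1, and the WT libraries are shared by both contrasts. Its test is therefore not independent of the choice. In clone 2 against WT, 4 of the 38 genes passed the quasi-likelihood test of edgeR (Benjamini-Hochberg adjustment over all genes tested), 2 lower and 2 higher, and 17.9% of all genes tested passed it. Mdga1 fell by 0.98 ± 0.24 (log2, SE; adjusted p = 0.00863) and Ppil1 by 0.29 ± 0.09 (adjusted p = 0.0318). Adamts10 rose by 0.98 ± 0.31 (adjusted p = 0.0393) and Mtch1 by 0.36 ± 0.11 (adjusted p = 0.0375). Both clone 2 libraries lay below both WT libraries for Mdga1 and Ppil1 and above them for Adamts10 and Mtch1. Over the 38 genes, both clone 2 libraries lay below both WT libraries in 15 and above in 12, against 30% and 31.3% of all genes tested. The other 34 genes were not called, with log2 differences between 0.73 ± 0.42 for Ccdc167 and -0.54 ± 0.29 for Rsph1, and for the well-expressed among them between 0.31 for Tbc1d22b and -0.24 for Angptl4.

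The calls in clone 2 depended on single libraries. Leaving out WT replicate 2 or clone 2 replicate 1, edgeR called 0 of the genes, with 4 and 6 at an unadjusted p under 0.05, and DESeq2 on all libraries called 1, Mdga1. The count was 2 when WT replicate 1 was left out, 1 for clone 2 replicate 2 and 7 for either clone 1 library. The rise of Adamts10 was 0.45 with WT replicate 2 left out and 1.80 with WT replicate 1 left out.

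Between the clones the contrast again contains the libraries that chose the genes, so it is a description. The ratio of clone 2 to clone 1 had a median of 1.91 over the 38 genes, and 36 lay above the reciprocal of 0.8, as did 14% of all genes tested. Both clone 2 libraries lay above both clone 1 libraries in 36 genes, a pattern held by 26.9% of all genes tested. Mdga1 was low in both clones, at 0.315 of the WT level in clone 1 and 0.508 in clone 2, and its ratio of clone 2 to clone 1 was 1.61. Srsf3 had a small one, 1.30, and Cbs a large one, 3.03. The lowest was that of Cmtr1, 0.998.

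The other 88 annotated entries of the stretch include 36 that were tested, and they were low in clone 1 too. Their median ratio of clone 1 to WT was 0.566, with 33 of the 36 under 0.8 against 15.9% of all genes tested. Their median in clone 2 was 1.02. They lie inside a stretch found by its low clone 1 values, so their clone 1 values are also a description of the choice. Pim1, a serine/threonine kinase gene induced by STAT3, stood at 151 and 156 CPM in the WT libraries, 44.9 and 75.9 in those of clone 1 and 132 and 149.6 in those of clone 2. Cdkn1a, the p53-induced inhibitor of cyclin-dependent kinases, stood at 175 and 192 CPM in the WT libraries, 106 and 125 in those of clone 1 and 218 and 227 in those of clone 2. For both the clone 1 libraries were below all others, at log2 differences of -1.35 ± 0.16 and -0.67 ± 0.09.

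The ribosomal protein gene Rps28 varied within groups, at 391 and 501 CPM in the WT libraries, 118 and 249.8 in those of clone 1 and 302 and 526 in those of clone 2, and its clone 1 difference of -1.28 ± 0.25 was -0.84 with clone 1 replicate 1 left out and -1.91 with replicate 2 left out. The complex I subunit genes Ndufv3 and Ndufa7 had clone 1 ratios of 0.509 and 0.507, the cytochrome P450 gene Cyp4f16 0.531, the ubiquitin ligase gene March2 0.627 and BC004004 0.642. Of the zinc finger genes clustered here, Zfp101, Zfp871 and Zfp870 had ratios of 0.385, 0.533 and 0.619.

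In clone 2, 5 of these 36 passed edgeR's test, 3 higher and 2 lower, where 17.9% of all genes tested passed it, so the count does not set these genes apart. Cdkn1a rose by 0.27 ± 0.09 (log2, SE; adjusted p = 0.0443), and its neighbour Trp53cor1, a noncoding RNA of the p53 response, by 1.27 ± 0.42 (adjusted p = 0.0466), from 1.85 CPM or less in WT. BC004004 rose by 0.56 ± 0.13 (adjusted p = 0.00478). Ubash3a, a phosphatase-like gene of T cells, fell by 0.67 ± 0.16 (adjusted p = 0.00638) and Zfp101 by 0.50 ± 0.14 (adjusted p = 0.0227). DESeq2 called 2. Leaving out a library, edgeR called 2 for WT replicate 1, 1 for WT replicate 2, 3 for clone 2 replicate 2 and 0 for clone 2 replicate 1, with 4 at an unadjusted p under 0.05 in that last fit. The rise of Trp53cor1 was 0.79 with WT replicate 2 left out and 1.97 with WT replicate 1 left out.

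Paralogs and known partners of these genes elsewhere in the genome were listed to see whether they moved. Of 86 listed, 83 were tested, and 13 were higher and 13 lower in clone 1 at an adjusted p under 0.05 in edgeR's test, where 12.4% and 9.53% of all genes tested were. Clone 2 had 10 higher and 6 lower, against 10.1% and 7.81% of all genes. The median ratio over the list was 0.991 in clone 1 and 0.985 in clone 2. Both contrasts share the WT libraries, and the counts rest on them: the 26 calls in clone 1 became 14 when WT replicate 1 was left out and 13 for WT replicate 2. The 16 calls in clone 2 became 6 and 9 for these, 6 for clone 2 replicate 1 and 28 for either clone 1 library.

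Abca1, a cholesterol exporter that works with Abcg1, had the largest fall among the genes of this list named by p, from 29.3 and 29.0 CPM in WT to 7.85 and 5.14 in clone 1 and 8.28 and 7.59 in clone 2. It fell by 2.17 ± 0.18 (log2, SE) in clone 1 (adjusted p = 3.12e-07) and by 1.88 ± 0.18 in clone 2 (adjusted p = 1.11e-06). Of the Notch family, Notch2 rose by 0.85 ± 0.12 in clone 1 (adjusted p = 7.98e-05) and 0.55 ± 0.12 in clone 2 (adjusted p = 0.00429). The ligand gene Jag2 stood at 13.0 and 17.1 CPM in the WT libraries, 32.0 and 36.5 in those of clone 1 and 25.7 and 25.1 in those of clone 2, and rose by 1.19 ± 0.14 in clone 1 (adjusted p = 1.68e-05) and 0.76 ± 0.15 in clone 2 (adjusted p = 0.00165). Notch4, on chromosome 17 beyond the end of the stretch, fell by 0.79 ± 0.14 in clone 2 (adjusted p = 6.98e-04) and 0.63 ± 0.14 in clone 1 (adjusted p = 0.00302).

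Of the partners in sulphur metabolism and glyoxal breakdown, Ahcy and Cth are named by p. Ahcy, which makes the homocysteine that Cbs consumes, stood at 211 and 224 CPM in the WT libraries, 133 and 151 in those of clone 1 and 213 and 212 in those of clone 2, lower in clone 1 (adjusted p = 6.30e-05). Cth, the next enzyme after Cbs, stood at 131 and 125 CPM in the WT libraries, 120.1 and 121 in those of clone 1 and 166 and 168 in those of clone 2, higher in clone 2 (adjusted p = 0.00288). Among relatives of the RNA genes, Myef2, a paralog of Hnrnpm, rose by 0.78 ± 0.10 in clone 1 (adjusted p = 3.01e-05), from 60.3 and 53.9 CPM in WT to 101 and 95.4. Cmtr2, which methylates the second nucleotide of capped RNA, rose by 0.93 ± 0.16 (adjusted p = 4.37e-04), and Pknox2, the paralog of Pknox1, by 1.16 ± 0.22 (adjusted p = 0.00123). In clone 2, Slc37a4, the glucose 6-phosphate carrier of the endoplasmic reticulum, rose by 1.32 ± 0.24 (adjusted p = 9.38e-04) and Kank2 by 0.37 ± 0.08 (adjusted p = 0.0043). Of the clone 2 calls, those of Jag2, Notch2 and Kank2 were lost without WT replicate 1, that of Cth without WT replicate 2, and those of Cth and Kank2 without clone 2 replicate 1; the clone 1 call of Notch4 was lost without WT replicate 2.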

How the data were processed

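Per the labels' protocols, total RNA was freed of ribosomal RNA and sequenced, here in 6 libraries. Each deposited file holds raw whole-number counts of reads per gene. Tools listed in the submitters' processing notes, without roles, are HTSeq 0.9.1, HISAT2 2.1.0 and DESeq2 1.18.1, with mm10 as the build. Which annotation, strand mode and filters served the counting is not given in the sources used here, so overlapping and antisense genes cannot be separated. The 5 summary entries of each file stayed out of library sizes. As shares of all reads, ambiguous reads were 6.96% to 9.10% and reads with several alignments 15.6% to 16.7%. Both ends of the ambiguous range were clone 1 libraries, replicate 1 at 6.96% and replicate 2 at 9.10%. Replicate 1 of clone 1 also had the highest share of reads in no gene, 5.3%. The part of this in the gap between the clone 1 libraries was not tested. Totals of at least 11976149 counts per library set the counting precision, and floors cover counting error only.

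The 38 genes were fitted with all 14946 that passed edgeR's filterByExpr, in 1 model of 3 groups (edgeR 4.0.16, TMM, quasi-likelihood F test, two-sided, Benjamini-Hochberg adjustment at 0.05, R 4.3.3). Ratios are 2 to the fitted log2 fold change. RPKM values divide CPM by the union of exons in GENCODE M21 (GRCm38), and coordinates come from there. Such a union can be longer than any single transcript, which lowers the RPKM, so rankings by RPKM depend on the annotation. The script was tested on simulated counts. Other settings tried were other size factors and filters, DESeq2 1.42.0, a replicate block, fits of 4 libraries and leaving out each library, with those for flanking genes and for clone 2 against clone 1 chosen after seeing the data. The members and lists were chosen with earlier results of these data known. All 43 genes are accounted for. Values for single libraries are printed at a mean CPM of 20 or more, and counts below that. Other genes of the stretch are named at that level or when called in clone 2, flanking genes for the 3 nearest on each side, and partners by the 8 smallest p in each clone; some genes these rules take are not reported here. Figures used matplotlib 3.10.9.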

Additional observations from a re-analysis of the deposited data

Results flagged for a closer look

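Among the paralogs and partners named by p, 6 differed between the clones by edgeR's test of clone 2 against clone 1 (Benjamini-Hochberg adjustment over all genes). Over the whole list 12 of 83 were called, 8 lower and 4 higher in clone 2, near the 14.3% of all genes tested, and the 6 had been named by small p in contrasts that use the same libraries. On the log2 scale, clone 2 minus clone 1 was 0.58 ± 0.08 (SE) for Ahcy (adjusted p = 1.96e-04) and 0.47 ± 0.08 for Cth (adjusted p = 7.12e-04). It was -0.57 ± 0.10 for Myef2 (adjusted p = 8.71e-04), -0.62 ± 0.15 for Cmtr2 (adjusted p = 0.0119), -0.78 ± 0.22 for Pknox2 (adjusted p = 0.0230) and -0.43 ± 0.14 for Jag2 (adjusted p = 0.0458).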

How the results depend on the processing

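The clone 1 median ratio over the tested genes of the stretch was 0.483 to 0.527 with each library left out, and 36 genes, or 37 without WT replicate 2, had a ratio under 0.8 in the alternatives run. The clone 2 median was 0.961 with no filter and 0.966 to 0.980 with each library left out. Of 38 genes, 4 were called in clone 2, with 1 by DESeq2, 7 with a fit of only the 4 libraries compared and 0 to 7 with each library left out; for other genes of the stretch the 5 calls were 2 by DESeq2 and 0 to 7 with each left out. The flanking count of 7 under 0.8 was 4 to 14. Partner calls were 13 to 32 in clone 1 and 6 to 28 in clone 2 with each library left out, and 26 in clone 2 with a fit of 4 libraries. With the replicate number as a block, 7 genes of the stretch and 25 partners were called in clone 2. The labels tie no batch to the number, and deviations of same-numbered libraries correlated across genes at 0.187, 0.0784 and 0.314. No named gene that passed the test in clone 2 turned direction in the alternatives run. Leaving a group with 1 library assumes that it varies like the others. DNA copies, strand and depth below about 1 CPM limit these values.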
